A study of Mus musculus with 16 samples.

Results

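The genes described here encode the proteins of the cytosolic ribosome. They were taken by symbol, as every gene of the deposited table whose name is Rpl or Rps followed by a number and at most 1 letter of a, x, y, l or p and 1 digit, leaving out pseudogene names with -ps and the Rps6k kinases. This gave 84 of the 49584 listed genes, 35 with small subunit names (Rps) and 49 with large subunit names (Rpl), and 79 of them (33 and 46) had enough reads to be tested. The rule misses the stalk proteins Rplp0, Rplp1 and Rplp2 and a few others, whose values are given beside the members.

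The cells were germinal centre B cells sorted from spleens of C57BL/6J mice aged 3 months, 8 days after they had been immunized with sheep red blood cells. Mutant centrocytes and mutant centroblasts came from Ezh2(Y641F)fl/wt;Cγ1-cre+/- mice, which carry 1 conditional allele of the histone methyltransferase Ezh2 with a lymphoma mutation. Control centrocytes and control centroblasts came from Cγ1-cre+/- mice, so the Cre driver, active in B cells that transcribe the Cγ1 constant region, is shared by all 4 groups. Centrocytes, the light zone cells, were gated as CXCR4- CD86+, and centroblasts, the cycling dark zone cells, as CXCR4+ CD86-, both within B220+ FAS+ CD38- cells. Each group had 4 libraries, described as biological replicates, and all mice carry the same litter label. A gene count does not tell the mutant Ezh2 transcript from the wild-type one, so the share of recombined cells is not known from these data.

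A ribosome is built from a small subunit, which reads the mRNA, and a large subunit, which joins amino acids, and each holds 1 copy of most of its proteins. Their mRNAs begin with a C followed by a run of pyrimidines, the 5′ terminal oligopyrimidine (TOP) tract, through which mTOR signalling and the RNA-binding protein LARP1 set their translation as a group. In germinal centres, B cells that receive T cell help raise mTOR and Myc activity, grow and return to the dark zone to divide. Ribosomal protein genes have many processed pseudogenes, which resemble the spliced mRNA.

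The libraries held 35230563 to 44466911 counted reads. Levels are given as CPM, counts scaled to a TMM-adjusted library size of 1000000, with SD and n = 4 per group, and differences as log2 fold changes with the SE of the fit. A gene was called where the adjusted p of edgeR's quasi-likelihood test (Benjamini-Hochberg over 15240 tested genes, below "edgeR adjusted p") was under 0.05. The 13 germinal centre B cell markers summed to 9186 to 12480 CPM and none was at 0 in any group. Mutant centrocyte libraries 3 and 4 stood apart in another respect: 17 macrophage markers summed to 518 and 511.5 CPM there, against 145 to 216 CPM in the other 6 centrocyte libraries, and 7 erythroid markers to 40.1 and 27.8 CPM, against 12 to 19.9 CPM. Libraries 1 and 2 of each group carried Y-linked transcripts and libraries 3 and 4 did not.

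To show the element that these mRNAs share, the 10 bases before and the first 20 bases after the RefSeq transcription start (GRCm38.p6) are printed for 6 members with a tract at the annotated start. They were chosen as large risers in mutant centrocytes (Rps21, Rps10, Rpl35), a faller between the zones (Rpl14), the S6 kinase substrate Rps6 and the longest tract (Rpl15). Capitals mark the C at the start and the unbroken pyrimidines that follow it.
Rps21, chr2:180257369-180257398, plus strand: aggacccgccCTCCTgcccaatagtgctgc
Rps10, chr17:27635225-27635254, minus strand: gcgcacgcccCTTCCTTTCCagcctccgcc
Rpl35, chr2:39005112-39005141, minus strand: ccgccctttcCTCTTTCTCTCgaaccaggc
Rpl14, chr9:120571507-120571536, plus strand: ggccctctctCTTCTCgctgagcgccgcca
Rps6, chr4:86857348-86857377, minus strand: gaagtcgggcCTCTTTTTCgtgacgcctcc
Rpl15, chr14:18270967-18270996, minus strand: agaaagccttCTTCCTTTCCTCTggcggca
For contrast, the largest riser in mutant centrocytes and the largest riser between the zones have no such tract at the annotated base, and the annotated start can differ from the start used in these cells.
Rpl13a, chr7:45128726-45128755, minus strand: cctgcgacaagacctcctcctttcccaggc
Rpl10a, chr17:28328461-28328490, plus strand: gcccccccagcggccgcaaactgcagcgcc

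Of the 79 tested members 58 matched a RefSeq promoter entry. A C followed by at least 4 pyrimidines exactly at the annotated start was present in 12 of the 58 (20.7%), against 3.01% of 27025 genes with a promoter entry. A C followed by at least 7 pyrimidines was also searched from 20 bases before to 20 bases after the start, so it can begin upstream of the transcript. It was present in 31 (53.4%), against 16.6% of all genes. The ETS family motif CCGGAAG, searched on both strands of the 300 bases around the start, was found in 24 members (41.4%), against 9.93% of all genes. Read on the other strand this motif begins with pyrimidines and can overlap the tract. The median log2 fold change of mutant over control centrocytes was 0.39 in the 31 members with the longer tract and 0.46 in the 27 without, with 12 risers in each set, and the difference was not tested. A match says only that these letters lie in the window.

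Levels differed widely between members, although the proteins are used in equal numbers. Per kb of transcript, those at the top included Rpl4, which reaches into the peptide exit tunnel, at 1928 CPM per kb, Rpl13a at 1759, Rps15 at 1537 and Rpl8, next to the peptidyl transferase centre, at 1442 CPM per kb. The lowest tested were Rpl39l at 0.707, Rps3a3 at 0.739, Rpl38 at 1.08, Rps6 at 1.81 and Rpl24 at 1.85 CPM per kb. Rps6 (chr4:86854660-86857412, minus strand) and Rpl24 are standard subunits of the ribosome, and a mean of 61.9 and 48.6 reads per library was counted for them, against 114000.0 reads for Rpl4. Of all reads counted for the members, 46.0% fell on 5 genes, Rpl4, Rps3, Rpl13a and Rpl8 among them, and 96.7% on 40 of the 84.

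The members with few reads often had much sequence in common with other genes. In Rps6, 84.6% of the 50-base windows of the transcript occurred in the transcript of at least 1 other gene, in Rpl24 81.7% and in Rps27 98.7%, whereas in Rps3 2.96% did and in Rpl8 6.49%. The relation was loose, with a Spearman coefficient of -0.37 across the 79 members, which share libraries and depth and are not independent. Rps18 had 303 CPM per kb with 86.7% of its windows shared, and Rpl39l had 0.707 with none. How reads that match several genes were counted is not given in the sources used here, and its part in these levels was not tested. A low value in these genes is therefore a level in the table, not a measured scarcity of the mRNA.

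**Figure D1:**
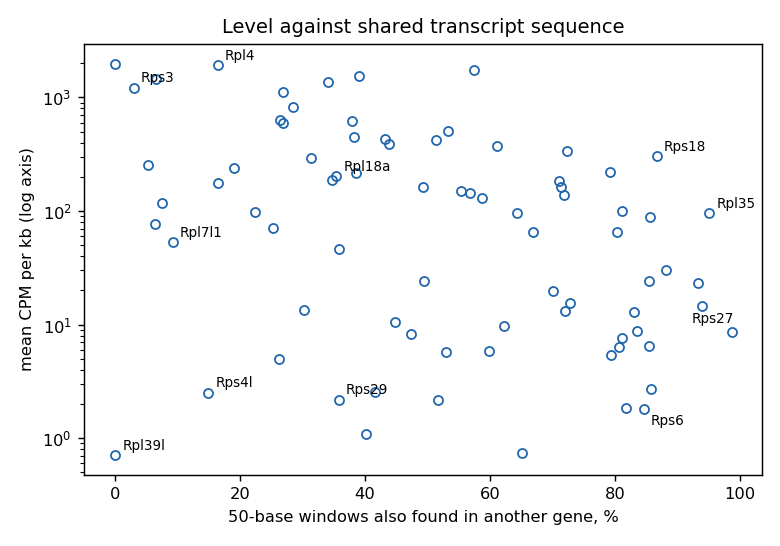
Mean level in 16 libraries (CPM per kb of transcript, log axis) of the 79 tested ribosomal protein genes against the percentage of their 50-base transcript windows that also occur in another gene. Rpl4 lies near the top with 16.4% shared and Rps6 near the bottom with 84.6%, but members with over 80% shared reach 303 CPM per kb (Rps18).

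The 5 members that were not tested were Rpl3l, a muscle form of Rpl3, with 5 reads in all 16 libraries together, Rpl10l, a testis form of Rpl10, with 9, and Rps12l1, Rps3a2 and Rpl6l, processed pseudogenes in the GENCODE annotation, with 3, 40 and 79 reads. Among those tested, Rps3a3 is also annotated as a processed pseudogene and Rps4l as a transcribed one.

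The members together took a larger share of the reads in mutant centrocytes than in control centrocytes. The share was 2.11, 2.38, 3.23 and 2.29% in mutant centrocyte libraries 1 to 4 and 1.98, 1.57, 1.75 and 1.64% in the control ones, with no overlap. It was 2.1, 3.13, 2.21 and 2.33% in mutant centroblasts and 1.7, 1.88, 2.24 and 2.65% in control centroblasts, which overlapped. The group means were 2.5 ± 0.5% for mutant centrocytes, 1.74 ± 0.18% for control centrocytes, 2.44 ± 0.47% for mutant centroblasts and 2.12 ± 0.42% for control centroblasts (SD, n = 4 each). The Wilson interval at 95% of a single share was at most 0.0117 percentage points wide and covers counting error only, so the spread between libraries is far larger than that of counting. In bulk samples, fewer cells of a type and less RNA per cell cannot be told apart.

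**Figure D2:**
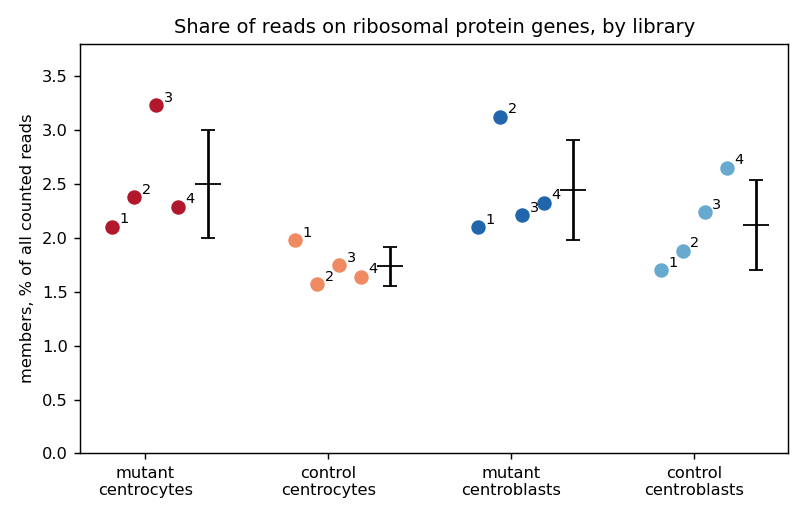
Share of all counted reads that fell on the 84 ribosomal protein genes (%), 1 point per library with its number, and the group mean with SD (n = 4). The 4 mutant centrocyte libraries lie at 2.11 to 3.23%, above the 4 control centrocyte libraries at 1.57 to 1.98%, whereas the centroblast groups overlap.

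Within a group the members moved together from library to library. In mutant centrocytes 60 of the 79 tested members (75.9%) were highest in library 3, where 29.8% of all tested genes were highest, and 52 were lowest in library 1. In control centrocytes 49 were highest in library 1 (62.0%, against 32.2% of all tested genes). In mutant centroblasts 67 were highest in library 2 (84.8%, against 29.3%), and in control centroblasts 47 were highest in library 4 (59.5%, against 34.1%). Other short genes went the same way in the median deviation from the mean of all libraries, on the log2(CPM + 1) scale. In mutant centrocyte library 3 it was 0.47 for members and 0.12 for 2556 other genes with transcripts under 1000 bases. In mutant centroblast library 2 it was 0.48 and 0.12, and these were the 2 highest of the 16 libraries in both measures. The added 1 shrinks the deviations of genes with low CPM, so the sizes for members and other genes cannot be compared directly. RNA quality values per library are not used here, and their part in this spread was not tested.

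**Figure D3:**
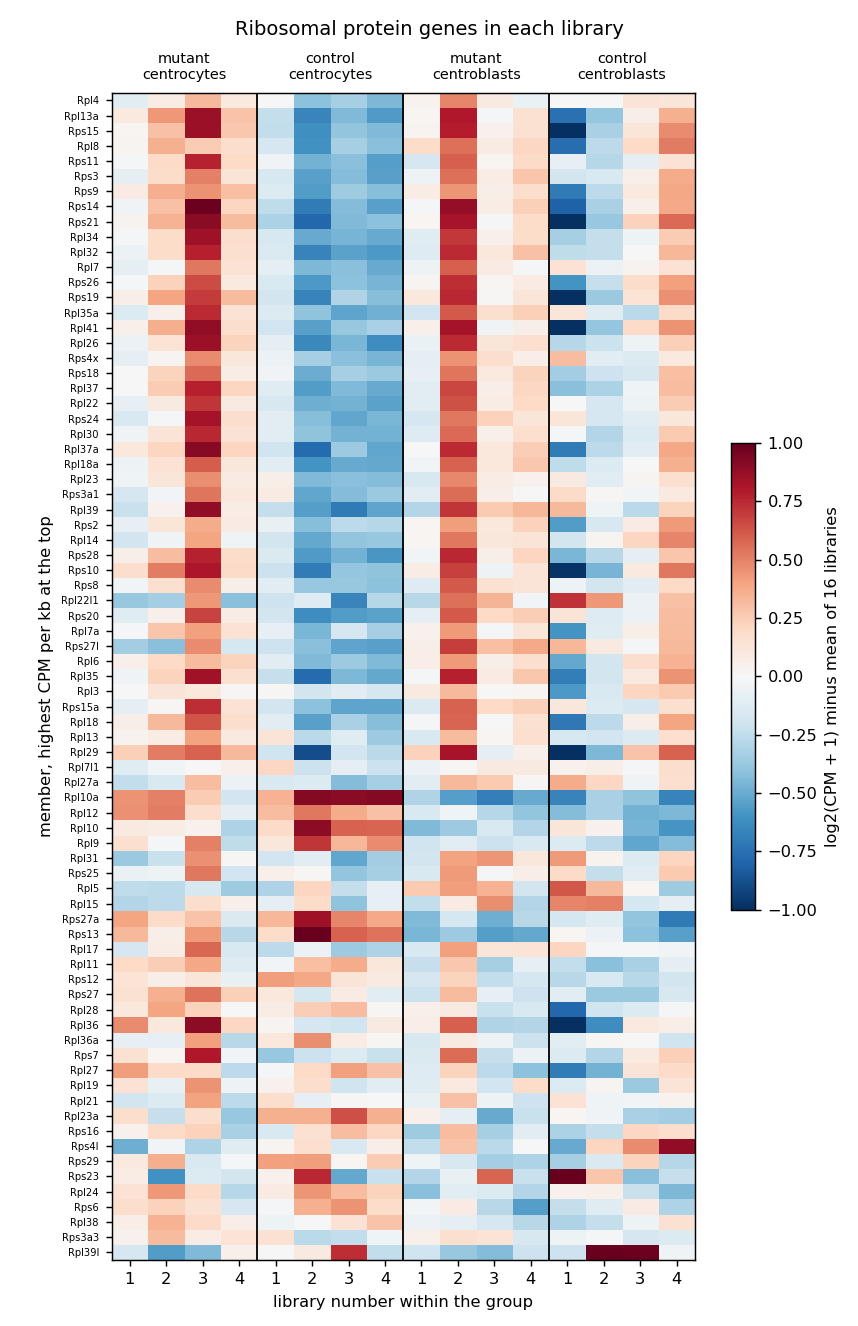
Deviation of 77 tested members (rows, ordered by CPM per kb) from its mean over 16 libraries, as log2(CPM + 1), in each library (columns), with colours cut at -1 and 1. Most members in the upper rows are red in mutant centrocyte library 3 and mutant centroblast library 2 and blue in control centrocyte libraries 2 to 4, and the band around Rpl10a, Rpl12 and Rpl10 runs the other way.

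The genotype comparison in centrocytes asks what the mutant methyltransferase changes in light zone cells. Of the 79 tested members 33 rose in mutant centrocytes (41.8%, where 7.37% of all tested genes were called higher) and 2 fell (2.53%, where 9.15% were called lower). The median log2 fold change was 0.46 over the members and 0.0014 over all tested genes, and 58 members had a positive one. The mutant and control libraries did not overlap, with the mutant ones higher, for 38 members (48.1%), against 11.1% of all tested genes, and with the mutant ones lower for 2 (2.53%, against 12.4%). Among the small subunit members 17 of 33 rose, and among the large subunit members 16 of 46 rose and 2 fell.

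Among the small subunit genes the largest rise was in Rps21 (chr2:180257377-180258445, plus strand), which had 241, 299, 439.5 and 292 CPM in mutant and 189, 136, 173 and 176 CPM in control centrocytes. Every mutant library lay above every control library, and mutant library 3 was the highest. The log2 fold change was 0.91 ± 0.28 (SE, edgeR adjusted p = 0.0329), a rise of 1.89 times. Rps14, whose human gene lies in the region lost in the 5q- syndrome, had 596, 750.0, 1207 and 709.5 CPM in mutant and 511, 375, 452 and 419 CPM in control centrocytes, without overlap (log2 fold change 0.89 ± 0.25, edgeR adjusted p = 0.0223). Rps10, a protein of the mRNA entry side that human cells ubiquitinate when ribosomes collide, had 137, 173, 213 and 138 CPM in mutant and 104, 74, 92.1 and 91.1 CPM in control centrocytes. Again the groups were apart, with a log2 fold change of 0.87 ± 0.25 (edgeR adjusted p = 0.0257).

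Rps19, the gene most often mutated in human Diamond-Blackfan anaemia, averaged 412 ± 76.6 CPM in mutant and 241 ± 33.6 CPM in control centrocytes and rose by 0.77 on the log2 scale (edgeR adjusted p = 0.0437). Rps3, a protein of the mRNA entry channel, averaged 2599 ± 449 and 1709 ± 225 CPM in the same groups and rose by 0.60 (edgeR adjusted p = 0.0165). Rps15, which is mutated in some human lymphocytic leukaemias, rose by 0.82 (edgeR adjusted p = 0.0371). Rps28, a small protein near the mRNA exit, had 66.1, 78.6, 109 and 72.3 CPM in mutant and 57.3, 42.6, 45.4 and 42 CPM in control centrocytes (log2 fold change 0.80 ± 0.20, edgeR adjusted p = 0.0104), and Rps9 rose by 0.67 (edgeR adjusted p = 0.0168). Both were picked after their values were seen, because they recur in the fits without single libraries given below.

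Among the large subunit genes Rpl13a (chr7:45125558-45128761, minus strand), also known from the translation-silencing GAIT complex of human monocytes, rose most. It had 1863, 2360.0, 3184 and 2131 CPM in mutant and 1481, 1101, 1287 and 1177 CPM in control centrocytes. Every mutant library lay above every control library, with mutant library 3 highest, and the log2 fold change was 0.92 ± 0.23 (edgeR adjusted p = 0.0114). Rpl37a had 125, 134, 217 and 134 CPM in mutant and 100.4, 67.5, 89.4 and 80.2 CPM in control centrocytes (log2 fold change 0.85 ± 0.23, edgeR adjusted p = 0.0153). Rpl35, at the mouth of the exit tunnel, had 83.2, 100.3, 154 and 95.8 CPM in mutant and 72.9, 50, 62.7 and 59.9 CPM in control centrocytes (log2 fold change 0.82 ± 0.23, edgeR adjusted p = 0.023). In both genes all mutant libraries exceeded all control libraries and library 3 stood above the other mutants.

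Not every abundant member passed. Rpl4 averaged 3148 ± 388 CPM in mutant and 2400.0 ± 363 CPM in control centrocytes, a log2 fold change of 0.39 ± 0.14 (edgeR adjusted p = 0.0568). Rpl8 had a log2 fold change of 0.58 ± 0.20 (edgeR adjusted p = 0.0563) and Rpl41, the smallest ribosomal protein, of 0.77 ± 0.28 (edgeR adjusted p = 0.0694).

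The 2 members that fell belong to the large subunit. Rpl10 (chrX:74270812-74273135, plus strand), a late-joining protein near the tRNA sites, had 20.9, 20.7, 20.1 and 15.6 CPM in mutant and 22.5, 37.2, 29.9 and 29.7 CPM in control centrocytes, without overlap and with mutant library 4 lowest (log2 fold change -0.63 ± 0.18, edgeR adjusted p = 0.0219). Rpl10a (chr17:28328471-28331033, plus strand), the protein of the mobile L1 stalk, had 27.8, 28.9, 24.2 and 17.5 CPM in mutant and 25.9, 39, 38.4 and 38.9 CPM in control centrocytes. Here control library 1 lay among the mutant libraries (log2 fold change -0.53 ± 0.17, edgeR adjusted p = 0.037). With the reads of its named pseudogenes added, the log2 fold change of Rpl10a was -0.26 and not called (edgeR adjusted p = 0.183), and without mutant libraries 3 and 4 it was -0.32 (edgeR adjusted p = 0.307). In that last fit Rpl10 had -0.51 (edgeR adjusted p = 0.178). Of the transcript windows 85.4% in Rpl10 and 88.1% in Rpl10a occur in other genes.

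The change went with the level in the table. Ordered by CPM per kb in 4 classes of 20, 20, 20 and 19 members, the lowest class had a median log2 fold change of -0.14 and 0 risers by edgeR and by DESeq2 (2 at an unadjusted edgeR p under 0.05, where 45 members were higher and 4 lower in all, against 15.1% and 16.2% of all tested genes), the next 0.11 with 3 risers and both fallers, the third 0.59 with 14 risers and the highest 0.68 with 16. Across the 79 members the Spearman coefficient of log2 fold change and CPM per kb was 0.72, and that of log2 fold change and the percentage of shared windows was -0.34; members share libraries, so these describe the pattern only. Median shared windows were 62.5, 71.0, 52.3 and 37.9% from the lowest to the highest class. In the lowest class a median of 110 reads per library was counted, against 22340 in the highest, so counting error is larger in the lowest class.

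**Figure D4:**
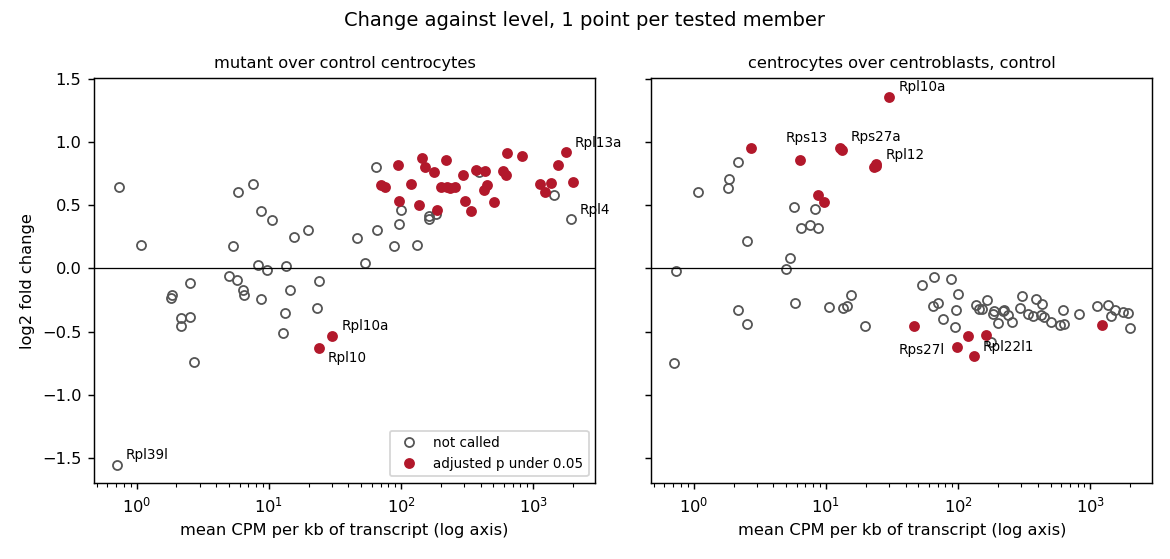
Log2 fold change of each tested member against its mean level (CPM per kb, log axis), mutant over control centrocytes on the left and centrocytes over centroblasts of control mice on the right, with called members filled. On the left the risers lie at or above 70.3 CPM per kb (Rpl18) and the 2 fallers at 23.9 (Rpl10) and 30.1 (Rpl10a); on the right the 10 risers lie at or below 30.1 CPM per kb and the 6 fallers at or above 46.1.

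The count of risers depended on single libraries. It was 2 without control centrocyte library 2 (Rpl13a and Rps28), 10 without control library 3, 6 without control library 4, 3 without mutant centrocyte library 3 (Rpl13a, Rps28 and Rps9) and 22 without mutant library 2. Without mutant libraries 3 and 4 together, those with the raised macrophage markers, edgeR called 0 members higher (3.09% of all tested genes) and had 23 higher at an unadjusted p under 0.05 (10.6% of all tested genes). DESeq2 was not run on these libraries. In that last fit the median log2 fold change of the members was 0.30, and without mutant library 3 alone it was 0.34. The fall of Rpl10 and Rpl10a was not called when control library 2, 3 or 4 or mutant library 4 was left out. The macrophage markers summed to 145 to 518 CPM over mutant centrocytes and 162 to 215 over control centrocytes. They summed to 109 to 244 CPM over mutant centroblasts and 80.4 to 135 over control centroblasts. Between the centrocyte groups 3 of the 17 rose and 1 fell, where 7.37% of all tested genes rose and 9.15% fell. Mutant centrocyte libraries 1 and 2, with marker sums of 216 and 145 CPM, had member shares of 2.11 and 2.38%. The 4 control centrocyte libraries had member shares of 1.57 to 1.98%. Whether macrophage content had a part in the member shares was not tested.

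In centroblasts no member was called between the genotypes, where 4.06% of all tested genes were called higher and 6.4% lower. With edgeR at an unadjusted p under 0.05 there were 0 higher (10.4% of all tested genes) and 1 lower (12.4%), and DESeq2 called 0 higher and 1 lower. The median log2 fold change was 0.19, against 0.0083 over all tested genes, and 60 of the 79 were positive. Rpl13a had 1770.0, 3034, 1720.0 and 1938 CPM in mutant and 1038, 1331, 1821 and 2228 CPM in control centroblasts. These overlapped, with mutant library 2 above and control library 1 below all others, and the log2 fold change was 0.40 ± 0.23 (edgeR adjusted p = 0.325). Rps28 and Rpl37a had the next smallest p values, with log2 fold changes of 0.40 ± 0.20 and 0.42 ± 0.22 (edgeR adjusted p = 0.235 and 0.279).

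The smallest p belonged to Rpl39l, the testis-enriched relative of Rpl39, with 0.289, 0.137, 0.0916 and 0.276 CPM in mutant and 0.277, 2.01, 1.91 and 0.439 CPM in control centroblasts. Control libraries 2 and 3 were high and the rest were near the mutant level (log2 fold change -2.54 ± 0.80, edgeR adjusted p = 0.0522).

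Whether the genotype acted differently in the 2 cell types was asked with the interaction, the log2 fold change of mutant over control in centrocytes minus that in centroblasts. No member and no other gene was called by edgeR; at an unadjusted p under 0.05 there were 0 members higher and 2 lower (0.984% and 1.83% of all tested genes), and DESeq2 called no member and 1 gene in all. The median interaction over the members was 0.31, against 0.0098 over all tested genes, and 60 of 79 were positive. The members with the smallest p were Rpl10a at -0.53 ± 0.24, Rpl9 at -0.49 ± 0.23 and Rpl10 at -0.50 ± 0.25 on the log2 scale (edgeR adjusted p = 0.999 each). For Rpl13a the interaction was 0.52 ± 0.32. The rise in centrocytes was thus not shown to differ from the change in centroblasts.

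The zone comparison asks how light zone cells differ from the dark zone cells of the same genotype. In control centrocytes over control centroblasts 10 of 79 rose (12.7%, where 14.9% of all tested genes were called higher) and 6 fell (7.59%, where 12.9% were called lower). At an unadjusted p under 0.05 there were 14 higher (17.7%, against 20.3% of all tested genes) and 19 lower (24.1%, against 18.4%). The median log2 fold change was -0.31, against 0.0049 over all tested genes, and 21 members were positive. The libraries did not overlap for 12 members with the centrocytes higher (15.2%, against 15.4% of all tested genes) and for 8 with the centrocytes lower (10.1%, against 12.3%). This comparison and the genotype comparison in centrocytes share the 4 control centrocyte libraries, so their values stand side by side without a test of their likeness.

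The risers included Rpl10a, Rps13, Rpl23a, Rps27a, Rpl12, Rpl10, Rpl9, Rps12 and Rpl11. Rpl10a had 25.9, 39, 38.4 and 38.9 CPM in control centrocytes, against 12.3, 15.9, 14.9 and 12.3 CPM in control centroblasts. All centrocyte libraries were well above all centroblast libraries, with a log2 fold change of 1.36 ± 0.17 (edgeR adjusted p = 1.82e-05), or 2.56 times. Rps13 had 8.16, 15.6, 11.2 and 10.8 CPM in control centrocytes, against 7.18, 6.76, 5.08 and 4.54 CPM in control centroblasts (log2 fold change 0.95 ± 0.21, edgeR adjusted p = 0.00281). Rps27a, made as a fusion with ubiquitin, had 12.8, 18.7, 14.4 and 13.2 CPM in control centrocytes, against 8.71, 9.09, 7.32 and 5.73 CPM in control centroblasts (log2 fold change 0.94 ± 0.17, edgeR adjusted p = 0.000745). Both genes were apart in the 2 cell types, with centrocyte library 2 highest.

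Rpl12, at the base of the factor-binding stalk, had 36, 42.1, 37.6 and 35.6 CPM in control centrocytes, against 21.1, 22.9, 20.6 and 20.9 CPM in control centroblasts, with little spread within either group (log2 fold change 0.83 ± 0.13, edgeR adjusted p = 0.000163). Rpl23a, a protein beside the exit tunnel, rose by 0.95 on the log2 scale (edgeR adjusted p = 0.0173) at 2.71 CPM per kb. Shared windows made up 49.4% of Rpl12, 72% of Rps27a, 83% of Rps13, 85.7% of Rpl23a and 88.1% of Rpl10a. When the reads of the pseudogenes named after a member were added to it, the log2 fold change of Rpl10a was 0.55 and still called, and that of Rps13 was 0.32 and not called (edgeR adjusted p = 0.147). In mutant mice neither was called with them added: Rpl10a had 0.32 (edgeR adjusted p = 0.0996) and Rps13 0.26 (edgeR adjusted p = 0.312) in centrocytes over centroblasts.

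The fallers were Rpl22l1, Rps27l, Rps20, Rpl14, Rpl27a and Rps3. Rps20 averaged 308 ± 44.7 CPM in control centrocytes, against 447 ± 61.8 CPM in control centroblasts and fell by 0.54 on the log2 scale (SE 0.17, edgeR adjusted p = 0.0293). Rps3 averaged 1709 ± 225 CPM in control centrocytes, against 2334 ± 434 CPM in control centroblasts (log2 fold change -0.45 ± 0.16, edgeR adjusted p = 0.046). Rpl14 and Rpl27a had log2 fold changes of -0.52 ± 0.15 and -0.45 ± 0.14 (edgeR adjusted p = 0.0173 and 0.0212). The number of fallers was 1 without control centrocyte library 3 or 4, and 3 without control centrocyte library 2 or control centroblast library 4. It was 13 to 15 without control centrocyte library 1, control centroblast library 1 or mutant centrocyte library 3. In the same order, 1365 of 15548, 1350 of 15568, 1446 of 15523 and 1797 of 15611 of all tested genes were called lower. In the last 3 fits these were 2069 of 15626, 2005 of 15614 and 2069 of 15576.

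In mutant centrocytes over mutant centroblasts 5 members rose (6.33%, where 8.92% of all tested genes were called higher) and none fell in the edgeR fit (7.07% of all tested genes were called lower); at an unadjusted p under 0.05 there were 8 higher (16.3% of all tested genes) and 2 lower (13.5%), and DESeq2 called 1 lower. The fit with the library number as a block, which pairs centrocytes and centroblasts of the same number, called 5 higher (6.33%, against 14.8% of all genes in that fit) and 2 lower (2.53%, against 10.4%). The median log2 fold change was 0.076, against 0.018 over all tested genes. Rpl10a had 27.8, 28.9, 24.2 and 17.5 CPM in mutant centrocytes and 16.2, 13.4, 12.1 and 13.9 CPM in mutant centroblasts (log2 fold change 0.82 ± 0.17, edgeR adjusted p = 0.00238), without overlap. Rps13, Rps27a and Rpl12 rose by 0.73, 0.59 and 0.51 (edgeR adjusted p = 0.0249, 0.0262 and 0.0104). The count of risers was 2 without mutant centrocyte library 1 or mutant centroblast library 3. It was 3 without mutant centrocyte library 2 or 3 or mutant centroblast library 1. In the same order, 1049 of 15606, 1072 of 15641, 1119 of 15623, 1370 of 15576 and 1102 of 15651 of all tested genes were called higher. The difference between the genotypes in the zone effect is the interaction above, which called no member.

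Several members have a near relative that is called by a number with an l. Some of these relatives are restricted to some tissues or states, and Rps4l is annotated as a transcribed pseudogene. Rpl22, an RNA-binding protein needed for development of mouse αβ T cells, had 481, 542, 835 and 539 CPM in mutant and 454, 362, 366 and 349.5 CPM in control centrocytes and rose by 0.65 on the log2 scale (edgeR adjusted p = 0.0186). Its paralogue Rpl22l1, which Rpl22 is known to repress in mice, had 53.3, 54.8, 94.4 and 51.8 CPM in mutant and 60.2, 63.4, 43.7 and 56.9 CPM in control centrocytes, with overlap (log2 fold change 0.18 ± 0.22, edgeR adjusted p = 0.6). Between control centrocytes and control centroblasts Rpl22l1 averaged 56 ± 8.67 and 90.6 ± 20.1 CPM and fell by 0.69 (SE 0.22, edgeR adjusted p = 0.0242), and Rpl22 had a log2 fold change of -0.43 ± 0.18 (edgeR adjusted p = 0.0807).

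Rps27l, a target of p53, had 40.5, 34.9, 32.2 and 31.9 CPM in control centrocytes, against 59.4, 49.8, 46.6 and 59 CPM in control centroblasts, without overlap, and fell by 0.62 on the log2 scale (SE 0.18, edgeR adjusted p = 0.0165). Between mutant and control centrocytes its log2 fold change was 0.35 ± 0.18 (edgeR adjusted p = 0.193). Its counterpart Rps27, with 98.7% of its windows shared, had 8.66 CPM per kb, against 97.3 for Rps27l, and was called in neither comparison (0.45 for mutant over control centrocytes and 0.32 for control centrocytes over centroblasts). Rpl39 rose in mutant centrocytes by 0.76 (edgeR adjusted p = 0.0282), Rpl7 by 0.52 (edgeR adjusted p = 0.0298) and the X-linked Rps4x by 0.46 (edgeR adjusted p = 0.0424). The relatives Rpl39l, Rpl7l1 and Rps4l had log2 fold changes of -1.55 ± 0.80, 0.04 ± 0.10 and -0.39 ± 0.31, none of them called (edgeR adjusted p = 0.195, 0.794 and 0.426). Rpl3, the standard form beside Rpl3l, had 0.17 (edgeR adjusted p = 0.424). In all, 2 of the 5 tested relatives, Rpl22l1 and Rps27l, fell in control centrocytes over control centroblasts (40%, against 12.9% of all tested genes). With 1 library of these groups left out, Rpl22l1 lost its call in 3 fits and Rps27l in 2.

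Rpl5 and Rpl11 form the 5S particle that binds MDM2, the inhibitor of p53, when ribosome assembly is disturbed. Rpl5 had 24.1, 24, 25.7 and 22.3 CPM in mutant and 23.1, 33.6, 24.3 and 27.2 CPM in control centrocytes (log2 fold change -0.17 ± 0.18, edgeR adjusted p = 0.554). Rpl11 had 9.17, 9.5, 10.6 and 7.11 CPM in mutant and 7.67, 9.94, 10.5 and 8.58 CPM in control centrocytes (log2 fold change -0.01 ± 0.17, edgeR adjusted p = 0.966). Both overlapped between the genotypes. Rpl11 rose in control centrocytes over control centroblasts by 0.53 (edgeR adjusted p = 0.0294), and Rpl5 had -0.30 ± 0.18 there (edgeR adjusted p = 0.248). Rps6 had 1.88, 1.99, 1.84 and 1.26 CPM in mutant and 1.52, 2.27, 2.49 and 1.9 CPM in control centrocytes, about the level of the lowest members, and no difference could be called (log2 fold change -0.23 ± 0.26, edgeR adjusted p = 0.579).

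Of the ribosomal protein genes that the naming rule misses, 8 were tested and 3 rose in mutant centrocytes (37.5%, against 7.37% of all tested genes), with a median log2 fold change of 0.49. Rack1, the scaffold of the small subunit head, averaged 2855 CPM in mutant and 1826 CPM in control centrocytes and rose by 0.64 ± 0.16 (SE, edgeR adjusted p = 0.0117). Rplp2 of the stalk rose by 0.74 ± 0.23 (edgeR adjusted p = 0.0369) and Rpl36al by 0.46 ± 0.16 (edgeR adjusted p = 0.0497), and Rplp0 had 0.51 ± 0.19 (edgeR adjusted p = 0.0683).

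Other mRNAs known to carry TOP tracts, 17 in number, included 5 that rose in mutant over control centrocytes (29.4%, against 7.37% of all tested genes), with a median log2 fold change of 0.32. In control centrocytes over control centroblasts 6 fell (35.3%, against 12.9% of all tested genes), with a median of -0.30. Eif3h, a subunit of the initiation factor that holds the small subunit, averaged 478 CPM in mutant and 294 CPM in control centrocytes (log2 fold change 0.70 ± 0.16, edgeR adjusted p = 0.00673). The elongation factors Eef1a1, Eef1b2 and Eef2 rose by 0.47 ± 0.12, 0.53 ± 0.18 and 0.53 ± 0.17 (edgeR adjusted p = 0.0144, 0.0479 and 0.046). Pabpc1, the poly(A)-binding protein, had -0.09 ± 0.09 (edgeR adjusted p = 0.547). In control centrocytes over centroblasts Eif3h fell by 0.64 and Eif4b by 0.41 on the log2 scale (edgeR adjusted p = 0.0071 and 0.00393).

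Of 18 regulators of ribosomal protein mRNAs and genes, 1 rose and 1 fell in mutant centrocytes (5.56% each, against 7.37% and 9.15% of all tested genes), so calls were not more frequent than over all genes. Eif4ebp1, an mTOR target that holds back initiation, averaged 30.3 CPM in mutant and 14.6 CPM in control centrocytes and rose by 1.05 ± 0.14 (edgeR adjusted p = 0.000133), and in mutant over control centroblasts by 0.93 ± 0.14 (edgeR adjusted p = 0.000336). Tsc1, which restrains mTOR, fell by 0.56 in centrocytes and by 0.53 in centroblasts (edgeR adjusted p = 0.00217 and 0.00374). Larp1 had -0.29 ± 0.13 in mutant over control centrocytes (edgeR adjusted p = 0.132) and Myc -0.15 ± 0.20 (edgeR adjusted p = 0.632). Myc rose in control centrocytes over control centroblasts by 1.47 ± 0.20 (edgeR adjusted p = 4.56e-05).

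Of 10 genes for chaperones and handling of newly made ribosomal proteins, 2 rose in mutant centrocytes (20%, against 7.37% of all tested genes), Pdcd2l by 0.67 ± 0.12 and Bccip by 0.41 ± 0.13 (edgeR adjusted p = 0.000901 and 0.0408). Of 9 genes that watch over ribosomal proteins and stalled ribosomes, 3 fell there (33.3%, against 9.15% of all tested genes). These were Mdm2 by 0.34, Hbs1l, a rescue factor for stalled ribosomes, by 0.27, and Ube2o, a ubiquitin ligase for unassembled ribosomal proteins, by 0.45 (edgeR adjusted p = 0.00973, 0.0362 and 0.0487). Trp53, the gene of p53, had -0.03 ± 0.11 (edgeR adjusted p = 0.898).

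Of 265 listed ribosomal protein pseudogenes with -ps names, 98 were tested, and 11 rose in mutant centrocytes (11.2%, against 7.37% of all tested genes). Their median log2 fold change was 0.64 and 95 of the 98 were positive. Their reads were few, 0.972 to 1.25% of the members' reads in a library. Reads of a member and of its pseudogenes cannot be told apart where the sequence is the same.

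Ribosomal protein transcripts are short, and transcript length went with the change over all genes. The median transcript length was 860 bases for the tested members and 2536 for the other tested genes with an annotated length. Among other genes the median log2 fold change of mutant over control centrocytes was 0.20 below 1000 bases, 0.10 from 1000 to 2000, -0.0026 from 2000 to 3000, -0.049 from 3000 to 5000 and -0.14 from 5000 bases up. The Spearman coefficient of log2 fold change and length over all 14774 genes with a length was -0.23 in centrocytes and -0.20 in centroblasts, across genes that are not independent. The 52 members below 1000 bases had a median of 0.48, and 22 of them rose (42.3%, against 7.90% of 2556 other genes of that length). The 21 members from 1000 to 2000 bases had a median of 0.39, and 7 rose (33.3%, against 11.2% of 3141 other genes). Members and other genes were matched here for length and not for read count, on which calling also depends.

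Within the 79 members the Spearman coefficient of log2 fold change and length was -0.044 for mutant over control centrocytes and -0.17 for mutant over control centroblasts. Between the zones it was -0.48 in mutant mice and -0.25 in control mice, where over all genes with a length it was 0.084 and 0.15. Among the members, then, the longer ones tended to lower values in centrocytes over centroblasts. The longest annotated members, named for their length, Rps15a with 5179 bases and Rps20 with 3706 bases, had log2 fold changes of 0.64 ± 0.17 and 0.67 ± 0.17 (edgeR adjusted p = 0.018 and 0.0143). An offset per library from splines of GC content and transcript length left 37 members called higher and 8 lower in mutant centrocytes (over all genes 2831 and 1641, against 1123 and 1394 without it). The median log2 fold change of the members was then 0.33, against 0.075 for all tested genes. Members rose in each of the 5 classes of annotated length, though the 2 longest classes hold 1 member each. These lengths are those of the longest principal transcript where one is marked. The transcripts made in these cells can be shorter and were not measured.

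**Figure D5:**
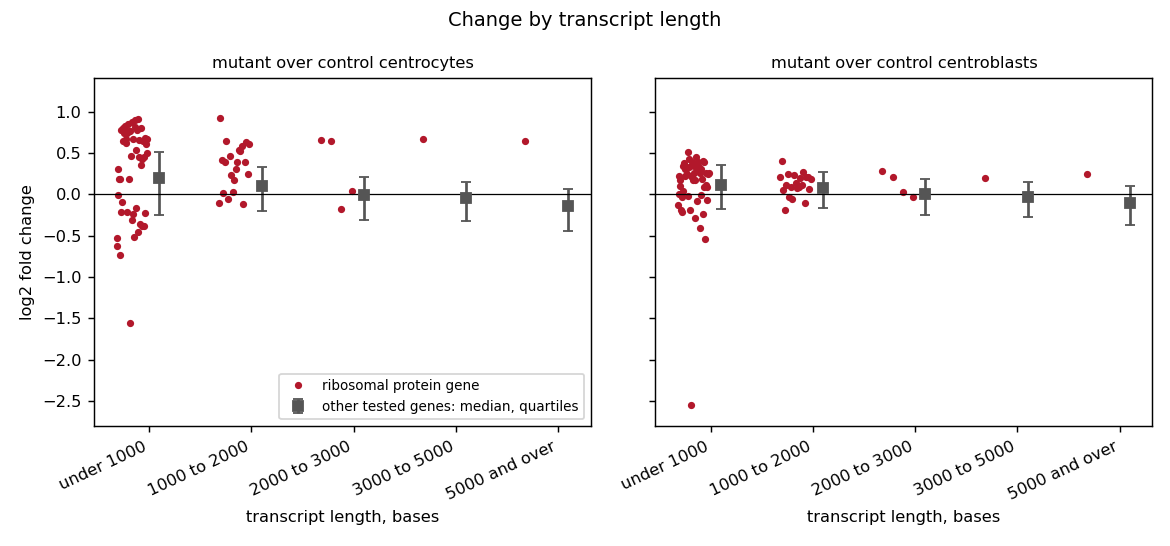
Log2 fold change of mutant over control centrocytes (left) and mutant over control centroblasts (right) by transcript length, with 1 point per tested ribosomal protein gene and the median and quartiles of the other tested genes in each length class. In centrocytes the other genes have medians of 0.20 below 1000 bases and -0.14 from 5000 bases up, and the members below 1000 bases have a median of 0.48.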

How the data were processed

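The deposited file holds whole-number read counts per gene symbol in 16 libraries, which the authors did not scale. By the submitters' processing notes the tools were Trim Galore, cutadapt, STAR 2.5.3a, and featureCounts 1.4.5-p1 from Subread, with mm10 as the genome build. The annotation, the strand setting and the treatment of reads that match several genes are not given in the sources used here, so members with near-identical pseudogenes or overlapping genes are uncertain. Naive B cells, named in the series' design, were not analysed here.

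Tests were run with edgeR 4.0.16 under R 4.3.3 on the counts as deposited (filterByExpr by group, TMM, 1 mean per group over the 16 libraries, 12 residual degrees of freedom, 2-sided quasi-likelihood test, Benjamini-Hochberg over 15240 genes, threshold 0.05), and the procedure was tested on simulated counts. The 5 comparisons were the genotypes within centrocytes and within centroblasts, the zones within mutant and within control mice, and the interaction. Alternatives were DESeq2 1.42.0, RLE size factors, no filter or a filter at 1 CPM, a fit of only the groups compared, a replicate block, sex as a covariate, immunoglobulin genes left out, a GC and length offset (splines, 4 degrees of freedom) with and without the block, pseudogene counts added to their member, and libraries left out.

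The members, the gene lists and the naming rule were chosen with earlier results of these data known. The rule named, per comparison, the 6 largest called rises and falls (the 3 smallest p where fewer than 3 were called), the l-type relatives with their standard forms, Rpl5, Rpl11, Rps6, Rps19, Rps14, Rps3 and Rpl41, and the 5 highest and 5 lowest members per kb; other members named were chosen after their values were seen. The values of 2 members are not reported here one by one, but they are in the counts, shares and medians.

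Transcript lengths came from GENCODE M21 (GRCm38) by symbol for 14774 of the 15240 tested genes (96.9%), as the longest principal transcript where one is marked. Shared sequence is the percentage of 50-base windows found in transcripts of other genes. Same-numbered mutant centrocyte and centroblast libraries deviated together (correlations of 0.327, 0.263, 0.324 and 0.316 for numbers 1 to 4). Mutant centrocyte library 2 with centroblast library 1 (0.286), and 4 with 3 (0.325), did so about as much. The pairing by number is thus an assumption, made in the fits with the replicate block and not in the main fit. Same-numbered control libraries did not do so in every pair (-0.0059, 0.395, 0.452 and 0.134), and mutant and control libraries share only a number. Nothing says which libraries share a mouse, so p values measure the spread between these libraries. No molecular identifiers are described, so counting intervals cover counting error only.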

Additional observations from a re-analysis of the deposited data

Results flagged for a closer look

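Of 160 sets of 4 libraries (40 members named by the rule in 4 groups), 11 (6.88%) had 1 library whose distance to its nearest neighbour took up most of the set's range, and so had the members' median deviation in 1 group. Chance alone gives such a library in about 1 of 20 sets. In mutant centroblasts library 2 was the highest for Rpl13a with 3034 CPM, Rps15 with 1251 CPM, Rpl7 with 864 CPM, Rps19 with 533 CPM and Rpl41 with 383 CPM. In mutant centrocytes library 3 was the highest for Rpl37a with 217 CPM and Rpl22l1 with 94.4 CPM, and library 4 the lowest for Rpl10 with 15.6 CPM. In control centrocytes library 1 was the highest for Rpl22 with 454 CPM and the lowest for Rpl10a with 25.9 CPM, and library 3 was the highest for Rpl23a with 2.84 CPM. The median deviation of all tested members from their mean over 16 libraries was -0.098 on the log2(CPM + 1) scale in control centrocyte library 1, the highest of its group.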

How the results depend on the processing

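The number of members called higher in mutant than in control centrocytes lay between 33 and 39 in every alternative that used all libraries. Over all genes these alternatives called from 845 of 14494 (replicate block) to 2831 of 15240 (GC and length offset) higher. With 1 library left out, 2 to 38 members were called higher, and 619 of 15523 to 1423 of 15614 of all genes. With mutant centrocyte libraries 3 and 4 left out together the members' number was 0 (495 of all 16029 genes). The number called lower there was 1 with a replicate block (1222 of all 14494 genes) and with pseudogene counts added (1386 of all 15142 genes). It was 8 with the GC and length offset (1641 of all 15240 genes) and 5 with the offset and the block (1384 of all 14494 genes). It was 0 without mutant libraries 3 and 4 (729 of all 16029 genes), and 0 to 3 with 1 library left out. Between centroblast genotypes the counts lower were 1 with DESeq2, with no filter, with the compared groups only, with sex and with immunoglobulin genes left out. Over all genes these fits called 1191 of 15240, 923 of 32901, 702 of 14110, 1043 of 15240 and 1003 of 14971 lower. The members' count lower was 2 with the offset (1227 of all 15240 genes). With 1 library left out the members' counts lower ran between 0 and 1, and the counts higher were 0. For control centrocytes over control centroblasts the count higher was 16 with the offset (2320 of all 15240 genes). It was between 8 and 11 with 1 library left out. The count lower was 12 with no filter (1598 of all 32901 genes) and 11 with the replicate block (1388 of all 14455 genes). It was 15 with the offset (3690 of all 15240 genes) and 23 with the offset and the block (3618 of all 14455 genes). Without mutant centrocyte libraries 3 and 4 it was 11 (2029 of all 16029 genes). With 1 library left out it was between 1 and 15. The offset raised the calls lower over all genes too, from 1960 of 15240 in the main fit. For mutant centrocytes over mutant centroblasts the main fit did not pair the libraries, and the fits with the replicate block paired them by number. The count higher was 11 with the offset and the replicate block (2162 of all 14186 genes in that fit). It was 3 with pseudogene counts added (1368 of all 15142 genes) and between 2 and 6 with 1 library left out. The count lower there was 2 with the replicate block, with no filter and with the offset. Over all genes these fits called 1477 of 14186, 915 of 32901 and 2493 of 15240 lower. The members' count was 3 with the offset and the block (2925 of all 14186 genes). It was 1 with DESeq2, with the compared groups only, with sex and without libraries 3 and 4. Those fits called 1376 of 15240, 1139 of 14186, 1116 of 15240 and 727 of 16029 of all genes lower. Between 0 and 1 members were called lower with 1 library left out. The interaction gave 0 called members in every alternative run; it uses all 4 groups, so it has no fit of compared groups only. With 1 library left out, the mean share of counts held by the members was 2.259 to 2.634% in mutant centrocytes, 1.654 to 1.79% in control centrocytes, 2.215 to 2.556% in mutant centroblasts and 1.94 to 2.258% in control centroblasts. Of 79 named values 35 were called, and 9 of them kept their call whichever library of the groups compared was left out. Of these, 6 kept it in every other alternative as well, and 0 called values changed sign. Fits without a library of the other groups were not part of this check. Uncalled values that changed sign were these log2 fold changes. In mutant over control centrocytes Rpl7l1 ran between -0.0039 and 0.143, Rpl22l1 between -0.0758 and 0.262 and Rpl11 between -0.0987 and 0.0822 with 1 library left out. Without mutant libraries 3 and 4 they were -0.000484, -0.0437 and 0.0332, and Rpl24 was 0.0465. There Rps6 was 0.0228 with pseudogene counts, and Rpl38 was -0.0392 with the offset and -0.0204 with the offset and block. In control centrocytes over control centroblasts Rpl3 ran between -0.229 and 0.0239, Rpl41 between -0.481 and 0.00206 and Rps3a3 between -0.312 and 0.146 with 1 library left out. Rpl3 was 0.00495 with the offset and 0.0307 with the offset and block, Rps3a3 was 0.169 and 0.126, and Rpl38 was -0.242 with pseudogene counts. The cause of these shifts was not tested. Depth limited the members with the fewest reads, where counting error is largest.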
